A study of Homo sapiens with 12 samples.

Results

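The core autophagy machinery and the cargo receptors that serve it were followed here in H1299 cells, as 43 of the 59577 genes in the deposited table. The genes were taken by symbol. They comprise the numbered ATG genes, the GABARAP and MAP1LC3 genes, ULK1 and ULK2, BECN1 and its partners, the WIPI and WDR45 genes, RB1CC1, and the receptors and adaptors NBR1, OPTN, CALCOCO2, TAX1BP1, TOLLIP and WDFY3. By step, 19 of them act in initiation, 18 in the lipidation of ATG8 proteins and 6 as receptors or adaptors.

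H1299 cells are an established human line of lung carcinoma (non-small cell). One group was kept for 24 h in a gas-controlled incubator at 60% O2, 5% CO2 and 35% N2 (hyperoxia, n = 6), and the other at 21% O2, 5% CO2 and 74% N2 (normoxia, n = 6). All samples share the one cell line, with no further allele, transgene or agent named in the labels. Whether replicates are separate cultures is not stated in the labels. The p-values set the group difference against the spread among these samples, and that spread may be technical.

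Autophagy encloses parts of the cytoplasm in a double membrane, the autophagosome, and delivers them to the lysosome. The ULK kinase complex and a lipid kinase complex around BECN1 start the membrane, a ubiquitin-like conjugation system then couples ATG8 proteins (the LC3 and GABARAP families) to its lipids, and receptors tie ubiquitylated cargo to these ATG8 proteins. In lung cells, autophagy is studied as one of the ways in which damaged mitochondria and oxidised proteins are removed.

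Expression was given as TPM, a transcript abundance per length scaled to a common total, and each sample summed to between 996138 and 998797 TPM. In a given sample, 14275 to 14635 genes stood at 1 TPM or more, and transcripts of mitochondrial DNA made up 6.92% to 8.19% of a sample. How deeply each library was sequenced is unknown, because TPM does not retain it. The cell label was set against marker genes. Of 5 epithelial markers, KRT8 and KRT18 reached a mean of 1 TPM, while EPCAM, KRT19 and CDH1 did not. All 3 mesenchymal markers did, with VIM the highest. None of 6 alveolar and airway markers reached 1 TPM, and 2 of them, SFTPC and SCGB1A1, were listed at 0 in all 12 samples. Of 6 leukocyte markers, 1 reached 1 TPM, the lysosomal CD68, with CD3E listed at 0. Fibroblast markers reached it in 1 of 6, COL1A1, and endothelial and red cell markers in 0 of 4 each. In a principal component analysis, the first component (20.7% of the variance) placed the hyperoxia samples between -19.8 and -11.3. Normoxia replicates 4 to 6 lay between 18.7 and 33.3 on it, apart from normoxia replicates 1 to 3 at 5.12 to 9.44. The labels name no batch, and each member that passed the test below is therefore also given without normoxia replicates 4 to 6.

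Genes with a mean of at least 1 TPM over the 12 samples were tested, which were 40 of the 43 members and 14520 genes in all. Differences are hyperoxia minus normoxia on the log2(TPM + 1) scale, a scale that understates the change of genes near 1 TPM. After hyperoxia, 9 of the 40 tested members were higher (22.5%), against 11.7% of all tested genes (limma, Benjamini-Hochberg adjusted p below 0.05). A single member, ATG5, was lower (2.5%), against 5.63% of all tested genes, and 30 did not pass. The members were chosen with earlier results of these data known. These are bulk samples, in which fewer cells of a type and less RNA per cell cannot be told apart, and the flux through the pathway was not measured. The members that rose were GABARAPL1, MAP1LC3A and MAP1LC3B among the ATG8 proteins, BECN1, ATG14 and WIPI2 at initiation, and OPTN, TAX1BP1 and NBR1 among the receptors. The changes were small, since the tested members spanned -0.16 to 0.50 with a median of 0.05, beside a median of 0.03 over all tested genes. Positive differences were found in 29 of the 40 members (72.5%) and in 57.1% of all tested genes. In 5 members (12.5%) every hyperoxia sample lay above every normoxia sample, as in 6.2% of all tested genes, and in 0 members below, against 2.58%. The split of calls over all genes depended on scaling. Higher genes were 67.5% of all calls here, 51.7% with median-of-ratios scaling and 54.3% with quantile normalization. With either scaling 8 of the 9 members remained higher, WIPI2 being the one lost, and ATG5 remained lower. Without normoxia replicates 4 to 6, 7 members were higher and 1 was lower. ATG14, WIPI2 and NBR1 then no longer passed, and ATG4D did.

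**Figure D1:**
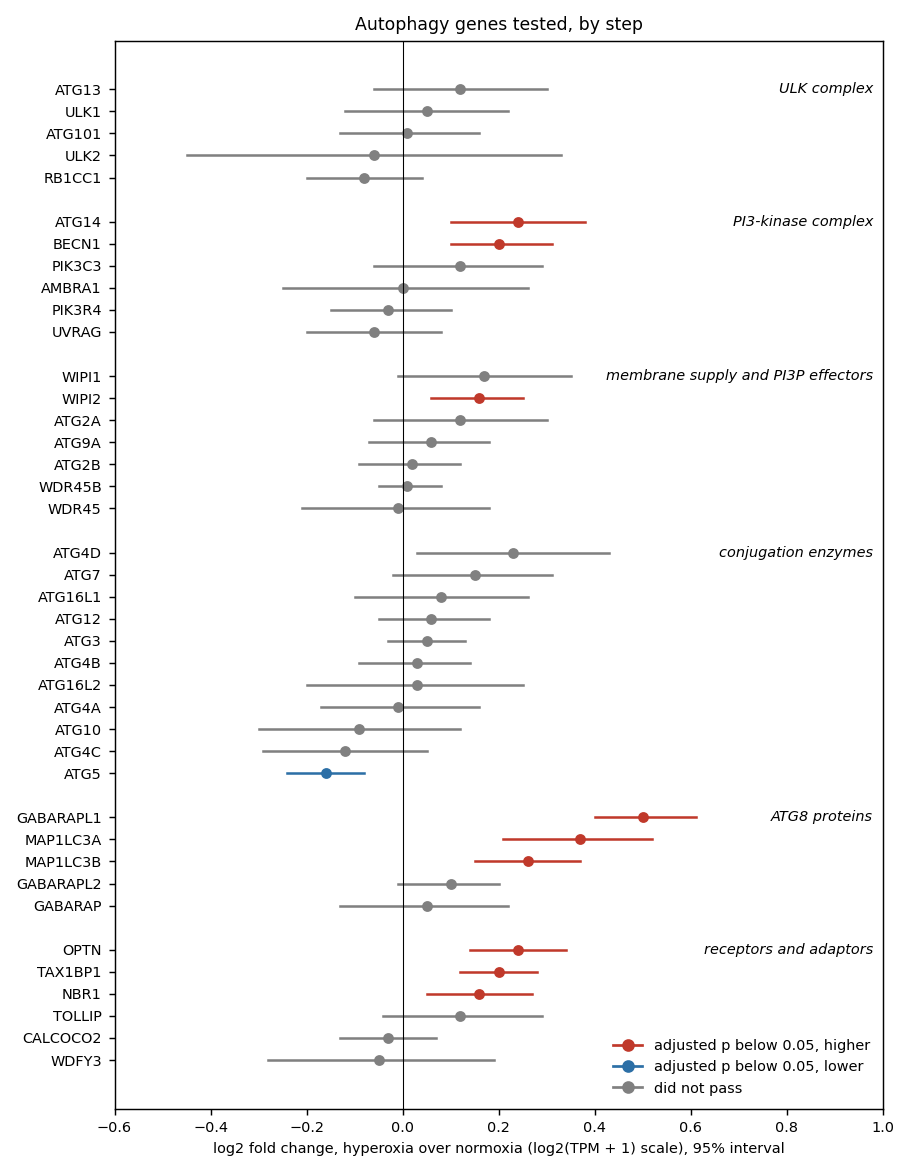
Log2 fold changes (hyperoxia minus normoxia, log2(TPM + 1) scale) of the 40 tested members, grouped by role, with points for the estimates and bars for 95% confidence intervals from limma. GABARAPL1 lies farthest to the right at 0.50, and ATG5 at -0.16 is the one member called lower.

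The 7 ATG8 genes encode the small ubiquitin-like proteins that are coupled to the membrane lipid phosphatidylethanolamine, where they bind receptors. Of the 5 that were tested, 3 rose by limma (60%), against 11.7% of all tested genes, and 0 were lower, against 5.63%. At an unadjusted p below 0.05, 3 were higher and 0 lower. The same counts were given by the exact rank-sum test and by the authors' deposited table. The median difference of the tested ATG8 genes was 0.26. GABARAPL1 (ENSG00000139112), of the GABARAP branch, had a lowest, median and highest level of 49.2, 51.2 and 56.2 TPM in hyperoxia, against 34.1, 35.9 and 39.2 TPM in normoxia. The groups did not overlap, and the difference was 0.50 (SE 0.05, n = 6 each, limma, Benjamini-Hochberg adjusted p = 2.12e-05). Without normoxia replicates 4 to 6 it was again 0.50 (limma, adjusted p = 0.00199).

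MAP1LC3A (ENSG00000101460), an LC3 paralogue, measured 39.5, 43.3 and 45.9 TPM at the lowest, median and highest hyperoxia sample and 26.9, 34.3 and 37.1 TPM in normoxia. Every hyperoxia sample was above every normoxia sample, at a difference of 0.37 (SE 0.07, limma, Benjamini-Hochberg adjusted p = 0.00366; 0.0337 without normoxia replicates 4 to 6). MAP1LC3B (ENSG00000140941), the LC3 protein most used as an autophagosome marker, measured 73.5, 76.6 and 84.1 TPM in hyperoxia and 58.7, 66.6 and 70.5 TPM in normoxia. These groups did not overlap either, and the difference was 0.26 (SE 0.05, limma, Benjamini-Hochberg adjusted p = 0.00417; 0.035 without normoxia replicates 4 to 6). MAP1LC3B shares reads in principle with its near-identical copy MAP1LC3B2. In GENCODE 29 transcripts, 4.82% of the 50-base words of MAP1LC3B also occur in MAP1LC3B2, and 15.1% of those of MAP1LC3B2 in MAP1LC3B. MAP1LC3B2 itself stood at 0.7 to 1.26 TPM in hyperoxia and 0.1 to 1.29 TPM in normoxia, below the minimum for testing. MAP1LC3C, at 0 to 0.1 TPM in hyperoxia and 0 to 0.16 TPM in normoxia, was not tested either. For MAP1LC3A no such word was shared, and for GABARAPL1 0.734% were, with GABARAPL3.

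GABARAP (ENSG00000170296), the founding member of its branch, was the most abundant ATG8 transcript, at 119.9, 140.4 and 158 TPM (lowest, median and highest) in hyperoxia and 122, 133 and 165 TPM in normoxia. The groups overlapped over nearly their whole range, and the difference was 0.05 (95% interval -0.13 to 0.22, limma, Benjamini-Hochberg adjusted p = 0.75). Of its 50-base words 27.3% also occur in AC120057.2, an overlapping gene model on the same strand that averaged 0.227 TPM in hyperoxia and 0 TPM in normoxia. GABARAPL2 measured 86.1 to 100.2 TPM in hyperoxia and 81.1 to 96.9 TPM in normoxia, with a difference of 0.10 (95% interval -0.01 to 0.20, limma, Benjamini-Hochberg adjusted p = 0.196). By median level in each group the order was GABARAP, GABARAPL2, MAP1LC3B, GABARAPL1 and MAP1LC3A. In hyperoxia the neighbours GABARAPL1 and MAP1LC3A were apart, with the lowest GABARAPL1 sample at 49.2 TPM and the highest MAP1LC3A sample at 45.9 TPM, whereas in normoxia they overlapped between 34.1 and 37.1 TPM.

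**Figure D2:**
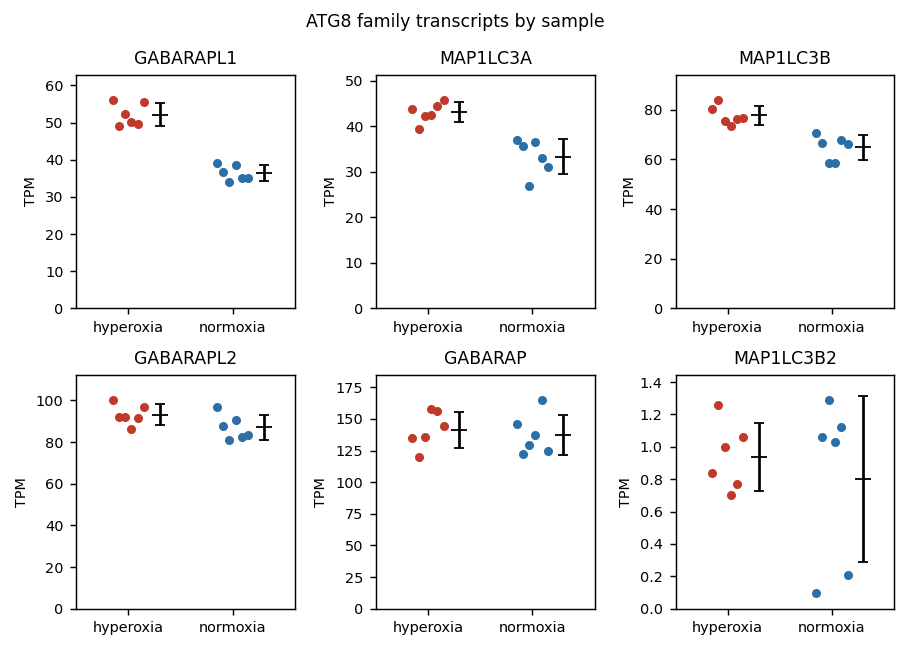
TPM of 6 ATG8 genes in each of the 12 samples, hyperoxia at left and normoxia at right in each pair, with points for samples and bars for mean and SD. GABARAPL1, MAP1LC3A and MAP1LC3B do not overlap between the groups, while GABARAPL2, GABARAP and MAP1LC3B2, which lies near or below 1 TPM, do.

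Summed over the 7 ATG8 genes, the level was 386, 414 and 421 TPM (lowest, median, highest) in hyperoxia and 332, 356 and 389.8 TPM in normoxia. The makeup of this sum also differed between the groups. GABARAPL1 made up 11.8% to 13.5% of it in hyperoxia and 9.12% to 10.7% in normoxia, with no overlap. The share of GABARAP was 31.1%, 34.2% and 38.5% (lowest, median and highest) in hyperoxia, against 34.9%, 37.6% and 42.9% in normoxia, and here the groups overlapped. The LC3 genes together held 28.4% to 32.4% of the sum in hyperoxia and 26.2% to 29.6% in normoxia. No test was made on these shares, which are built from the same values as the tests above.

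**Figure D3:**
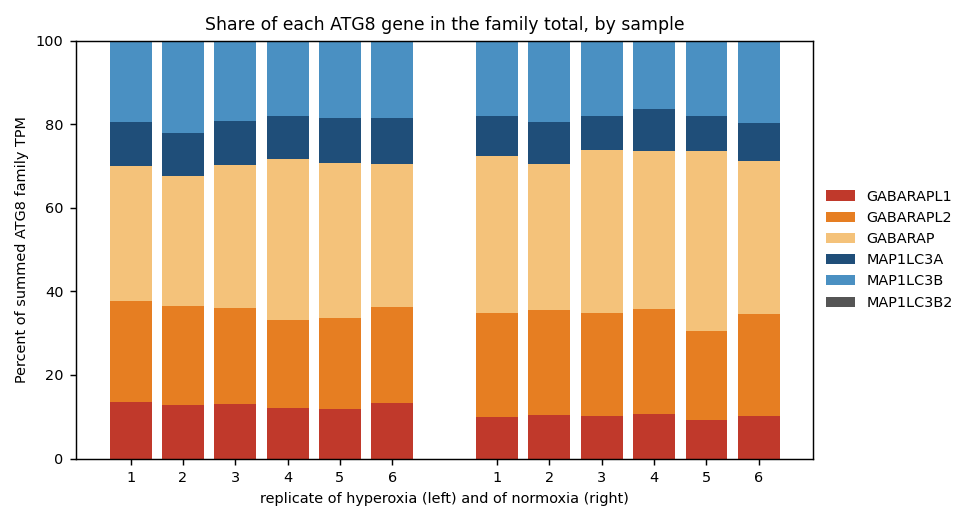
Share of each ATG8 gene in the summed TPM of the 7 ATG8 genes, in percent, as stacked bars per sample, with hyperoxia replicates at left and normoxia replicates at right. MAP1LC3B2 is too thin to be seen and MAP1LC3C, at or near 0, is not drawn. The GABARAPL1 share runs from 11.8% to 13.5% in the hyperoxia samples and from 9.12% to 10.7% in the normoxia samples.

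The conjugation group prepares ATG8 proteins and attaches them to the membrane. Of its 11 genes, all of them tested, 0 rose by limma, against 11.7% of all tested genes. By limma 1 fell (9.09%), against 5.63% of all tested genes, and 10 did not pass. At an unadjusted p below 0.05, 1 had a positive difference. By the exact rank-sum test 0 were higher, and 3 were in the authors' deposited table. ATG5 (ENSG00000057663) is joined to ATG12 and forms, with ATG16L1, the complex that directs lipidation. It measured 26.1, 26.5 and 28.1 TPM (lowest, median, highest) in hyperoxia and 27.7, 30.3 and 31.4 TPM in normoxia. The highest hyperoxia sample lay above the lowest normoxia sample, and the difference was -0.16 (SE 0.04, limma, Benjamini-Hochberg adjusted p = 0.0121). Without normoxia replicates 4 to 6 it was -0.20 (limma, adjusted p = 0.0165). None of its 50-base words occurs in another gene.

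ATG12 (ENSG00000145782), the partner of ATG5, had the most abundant transcript of this group. It measured 71.7, 81.2 and 86.8 TPM in hyperoxia and 68.9, 77.5 and 85.2 TPM in normoxia (difference 0.06, SE 0.05, limma, Benjamini-Hochberg adjusted p = 0.458). The proteases that trim ATG8 proteins and free them from the membrane are ATG4A to ATG4D. ATG4D, at 19.4 to 25.2 TPM in hyperoxia and 15.4 to 21.7 TPM in normoxia, had a difference of 0.23 (SE 0.09) that did not pass (limma, Benjamini-Hochberg adjusted p = 0.108), but was 0.40 without normoxia replicates 4 to 6 (limma, adjusted p = 0.0259). ATG4A, ATG4B and ATG4C had differences of -0.01, 0.03 and -0.12. The activating enzyme ATG7 stood at 0.15 (95% interval -0.02 to 0.31), the carrier enzymes ATG3 and ATG10 at 0.05 and -0.09, and ATG16L1 and its paralogue ATG16L2 at 0.08 and 0.03, all on the log2 scale. Of these, ATG4D overlaps KRI1 on the opposite strand over 15% of its exon bases, ATG7 overlaps VGLL4 over 18.1% and ATG10 overlaps RPS23 over 6.86%. The ribosomal RPS23 was far more abundant than ATG10, at a mean of 5010 TPM in hyperoxia and 4980 TPM in normoxia. The labels name both a directional and another library kit, so whether reads were assigned by strand is not settled, and reads of such pairs may not have been told apart.

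Initiation begins with the ULK complex, the kinase module that responds to nutrient and energy signals. In limma, 0 of its 5 genes were higher and 0 lower (0 at an unadjusted p below 0.05, 0 by the exact rank-sum test, and 1 higher in the authors' deposited table). ATG101 (ENSG00000123395), a scaffold partner of ATG13 and the most abundant of the 5, measured 63.7, 76.6 and 83.3 TPM (lowest, median and highest) in hyperoxia and 64.2, 75.8 and 80.4 TPM in normoxia. Its difference was 0.01 (95% interval -0.13 to 0.16), with groups that overlapped throughout (limma, Benjamini-Hochberg adjusted p = 0.912). The kinase ULK1 had a difference of 0.05 (95% interval -0.12 to 0.22), its paralogue ULK2 -0.06 at a mean of only 1.32 TPM, ATG13 0.12 and the scaffold RB1CC1 -0.08. ULK2 was the tested member closest to the 1 TPM minimum and its interval, -0.45 to 0.33, was the widest.

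The BECN1 complex makes the phosphoinositide PI3P that marks the site of membrane growth. Of its 6 genes 2 rose and 0 were lower by limma (0 lower at an unadjusted p below 0.05, 0 by the exact rank-sum test and 0 in the authors' deposited table). BECN1 (ENSG00000126581), the regulatory subunit, measured 38.7, 40.4 and 42.9 TPM (lowest, median and highest) in hyperoxia and 31.6, 35 and 39.1 TPM in normoxia. A single normoxia sample lay above the lowest hyperoxia sample, and the difference was 0.20 (SE 0.05, limma, Benjamini-Hochberg adjusted p = 0.011; 0.00728 without normoxia replicates 4 to 6). BECN1 overlaps 2 genes on the opposite strand, CNTD1 over 12.4% of its exon bases and PSME3 over 4.68%. PSME3 averaged 103 TPM in hyperoxia and 99.6 TPM in normoxia, and CNTD1 averaged 0.568 TPM in hyperoxia and 0.695 TPM in normoxia.

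ATG14 (ENSG00000126775), which directs the complex to autophagosome formation, measured 5.28, 6 and 6.65 TPM in hyperoxia and 4.41, 4.88 and 5.49 TPM in normoxia. The groups overlapped at one end, and the difference was 0.24 (SE 0.07, limma, Benjamini-Hochberg adjusted p = 0.025). The call was lost without normoxia replicates 4 to 6 (0.24, limma, adjusted p = 0.124), and without any 1 of hyperoxia replicates 2 and 5 and normoxia replicate 2 (limma, adjusted p = 0.0505 to 0.0554). UVRAG, which takes the place of ATG14 in the endosomal form of the complex, had a difference of -0.06 (95% interval -0.20 to 0.08). PIK3C3 (ENSG00000078142), the catalytic subunit, measured 30.2, 31.3 and 36.9 TPM in hyperoxia and 25, 30.8 and 35 TPM in normoxia, at a difference of 0.12 (SE 0.08, limma, Benjamini-Hochberg adjusted p = 0.364). The kinase-like subunit PIK3R4 stood at -0.03 and the positive regulator AMBRA1 at 0.00 on the log2 scale.

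Membrane supply and the reading of PI3P fall to ATG9A, ATG9B, ATG2A, ATG2B and the 4 PI3P-binding proteins WIPI1, WIPI2, WDR45B and WDR45. Of the 7 tested, 1 rose by limma (14.3%), against 11.7% of all tested genes, and 0 were lower, against 5.63%. At an unadjusted p below 0.05, and in the authors' deposited table, 1 was higher and 0 were lower. By the exact rank-sum test 0 were higher and 0 lower. WIPI2 (ENSG00000157954), which recruits ATG16L1 to the growing membrane, measured 65.9, 68.5 and 75.1 TPM (lowest, median and highest) in hyperoxia, against 58.8, 61 and 66.7 TPM in normoxia. The groups overlapped slightly and the difference was 0.16 (SE 0.04, limma, Benjamini-Hochberg adjusted p = 0.029). Without normoxia replicates 4 to 6 the difference was again 0.16, with an adjusted p of 0.104 by limma. Leaving out any 1 of hyperoxia replicates 3, 4 and 6 or normoxia replicates 1, 3, 5 and 6 also ended the call (limma, adjusted p = 0.0501 to 0.0642). Its paralogue WIPI1 had a near-equal difference of 0.17 with a wider error (SE 0.08, limma, Benjamini-Hochberg adjusted p = 0.179), and 24.3% of its exon bases overlap ARSG on the opposite strand. WDR45B (ENSG00000141580) measured 75.2, 78.6 and 81.9 TPM in hyperoxia and 74.9, 78.1 and 79.9 TPM in normoxia, a difference of 0.01 (SE 0.03, limma, Benjamini-Hochberg adjusted p = 0.823). The remaining differences were -0.01 for WDR45, 0.06 for the lipid scramblase ATG9A, and 0.12 and 0.02 for the lipid transfer proteins ATG2A and ATG2B. ATG9A shares 33.6% of its 50-base words with AC068946.2, a gene model read on the same strand, and WDR45 shares 10% with PRAF2. ATG9B, at 0.05 to 0.51 TPM in hyperoxia and 0 to 0.4 TPM in normoxia, was not tested.

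Receptors and adaptors carry a motif that binds ATG8 proteins, and most of them also bind ubiquitin. Of the 6 members, all of them tested, 3 rose by limma (50%), against 11.7% of all tested genes. By limma 0 were lower, against 5.63% of all tested genes. At an unadjusted p below 0.05, and in the authors' deposited table, 3 were higher and 0 lower. By the exact rank-sum test 2 were higher, without NBR1, and 0 lower. The median difference of the 6 was 0.14. OPTN (ENSG00000123240), a receptor for damaged mitochondria and bacteria, measured 43.4, 46.2 and 49.2 TPM (lowest, median and highest) in hyperoxia and 34.7, 39.7 and 40.8 TPM in normoxia. The groups did not overlap and the difference was 0.24 (SE 0.05, limma, Benjamini-Hochberg adjusted p = 0.0033; 0.0278 without normoxia replicates 4 to 6). TAX1BP1 (ENSG00000106052), which clears protein aggregates and also acts on bacteria, measured 63.9, 68 and 70.3 TPM in hyperoxia and 56, 58.5 and 62.9 TPM in normoxia. Again no normoxia sample reached a hyperoxia sample, and the difference was 0.20 (SE 0.04, limma, Benjamini-Hochberg adjusted p = 0.00286; 0.0399 without normoxia replicates 4 to 6).

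NBR1 (ENSG00000188554), a receptor for aggregates and peroxisomes, measured 28.6, 31.9 and 33.2 TPM in hyperoxia and 25.3, 28 and 30.3 TPM in normoxia. These groups overlapped, and the difference was 0.16 (SE 0.05, limma, Benjamini-Hochberg adjusted p = 0.0419). The difference was 0.14 and did not pass without normoxia replicates 4 to 6 (limma, adjusted p = 0.216). Leaving out any 1 of hyperoxia replicates 1, 2, 4, 5 and 6 or normoxia replicates 3 to 6 ended the call as well (limma, adjusted p = 0.0619 to 0.0895). CALCOCO2 (ENSG00000136436), the bacterial and mitochondrial receptor also called NDP52, was the most abundant of the 6, at 115, 121 and 125 TPM in hyperoxia and 111, 121 and 137 TPM in normoxia. It differed by -0.03 (95% interval -0.13 to 0.07, limma, Benjamini-Hochberg adjusted p = 0.716), and the hyperoxia samples lay inside the normoxia range. The adaptor TOLLIP stood at 0.12 and the aggregate scaffold WDFY3 at -0.05 on the log2 scale.

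Promoter sequence is shown for 4 members to set the letters before the start beside the calls. GABARAPL1 and MAP1LC3B are 2 ATG8 genes that rose, ATG14 is the member that rose with an E-box in its window, and ATG3 is a member with E-boxes that did not pass. RefSeq promoters (GRCh38.p14), running from 250 bases before to 50 bases after a gene's start, were found for 37 of the 43 members, in 46 windows. There were 8 among the 9 members that rose, MAP1LC3A being the one without a window, 1 for ATG5, and 28 among the other members. Each line gives the 250 bases before the start, 5′ to 3′ on the gene's own strand, with the motif in capitals.
GABARAPL1, chr12:10212627-10212876, plus strand: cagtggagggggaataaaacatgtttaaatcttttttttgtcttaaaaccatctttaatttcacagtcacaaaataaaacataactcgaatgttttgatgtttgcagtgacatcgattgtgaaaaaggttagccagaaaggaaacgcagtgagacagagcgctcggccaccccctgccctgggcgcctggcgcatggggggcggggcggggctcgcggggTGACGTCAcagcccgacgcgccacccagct
MAP1LC3B, chr16:87392086-87392335, plus strand: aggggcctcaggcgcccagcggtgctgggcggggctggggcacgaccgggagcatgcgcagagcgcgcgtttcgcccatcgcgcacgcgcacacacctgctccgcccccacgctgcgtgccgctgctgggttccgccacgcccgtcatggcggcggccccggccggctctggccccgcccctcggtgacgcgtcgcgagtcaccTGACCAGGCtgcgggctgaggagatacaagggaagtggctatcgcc
ATG14, chr14:55411831-55412080, minus strand: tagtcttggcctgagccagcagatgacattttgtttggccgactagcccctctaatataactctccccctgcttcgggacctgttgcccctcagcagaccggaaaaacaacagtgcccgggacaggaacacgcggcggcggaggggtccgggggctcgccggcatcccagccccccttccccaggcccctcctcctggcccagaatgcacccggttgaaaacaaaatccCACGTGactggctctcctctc
ATG3, chr3:112561963-112562212, minus strand: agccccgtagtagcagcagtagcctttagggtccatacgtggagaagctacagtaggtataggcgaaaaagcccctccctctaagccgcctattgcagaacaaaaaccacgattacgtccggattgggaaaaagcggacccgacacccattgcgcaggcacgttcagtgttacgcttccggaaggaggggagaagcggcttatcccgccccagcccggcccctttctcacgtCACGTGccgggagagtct

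The capitals mark 3 different motifs, each searched on both strands of the whole windows. The E-box CACGTG, the letters bound by TFEB and TFE3 among other factors, occurs in 7.26% of all 35116 windows and in a window of 8.77% of the 27305 genes. Members are counted by gene. It was found in 1 of the 8 windowed members that rose (ATG14, first base at -21 from the start), not in ATG5, and in 1 of the 28 others (ATG3, at -18 and at 5, the second lying beyond the printed bases). The antioxidant response element core TGACNNNGC, which occurs in 13.3% of all windows and 16.1% of genes, was found in MAP1LC3B at -46 and in 4 of the 28 others (ATG101, ATG9B, CALCOCO2 and TOLLIP). The cAMP response element TGACGTCA was added to the search after its letters were seen in GABARAPL1. It lies there at -30 and in no other member, and occurs in 1.85% of all windows and 2.25% of genes. No 2 of these matches overlapped. A match describes these letters and was not tested as a binding site.

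Genes of the same pathway outside the 43 were read from the same fit. Their lists were chosen with earlier results of these data known, so the shares that follow describe the lists and are no independent support. Of 17 further genes, receptors and the kinase TBK1, 16 were tested and 7 rose (43.8%), against 11.7% of all tested genes. By limma 0 were lower, against 5.63% of all tested genes (0 at an unadjusted p below 0.05, 0 by the exact rank-sum test and 0 in the authors' deposited table). SQSTM1 (ENSG00000161011), the receptor that collects ubiquitylated aggregates, measured 553, 589 and 632 TPM (lowest, median and highest) in hyperoxia and 229.7, 254 and 275 TPM in normoxia, at a difference of 1.20. It stood above each of the 6 member receptors in every sample of both groups. TBK1 (ENSG00000183735), the kinase that phosphorylates OPTN and other receptors, measured 27.5, 28.8 and 30.5 TPM in hyperoxia and 22, 23.9 and 25.1 TPM in normoxia. Those groups did not overlap, at a difference of 0.27 (SE 0.04, limma, Benjamini-Hochberg adjusted p = 0.00095; 0.0177 without normoxia replicates 4 to 6). The mitochondrial receptors BCL2L13 and BNIP3 rose by 0.28 and 0.25 (limma, Benjamini-Hochberg adjusted p = 0.00176 and 0.00655). The other 3 that rose were CCPG1, NCOA4 and SEC62. The SEC62 call ended without any 1 of hyperoxia replicates 1 to 5 or normoxia replicates 1, 4, 5 and 6 (limma, adjusted p = 0.0517 to 0.0934). Without normoxia replicates 4 to 6 the count was 4, as CCPG1, NCOA4 and SEC62 no longer passed (limma, adjusted p = 0.128, 0.0807 and 0.309). The NCOA4 call also ended with median-of-ratios scaling and with quantile normalization (limma, adjusted p = 0.0636 and 0.0639). Both scalings ended the SEC62 call as well (limma, adjusted p = 0.182 and 0.183). SEC62 did not pass by the exact rank-sum test either (adjusted p = 0.112). In the authors' deposited table it had a log2 fold change of 0.08 (edgeR, adjusted p = 0.271).

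**Figure D4:**
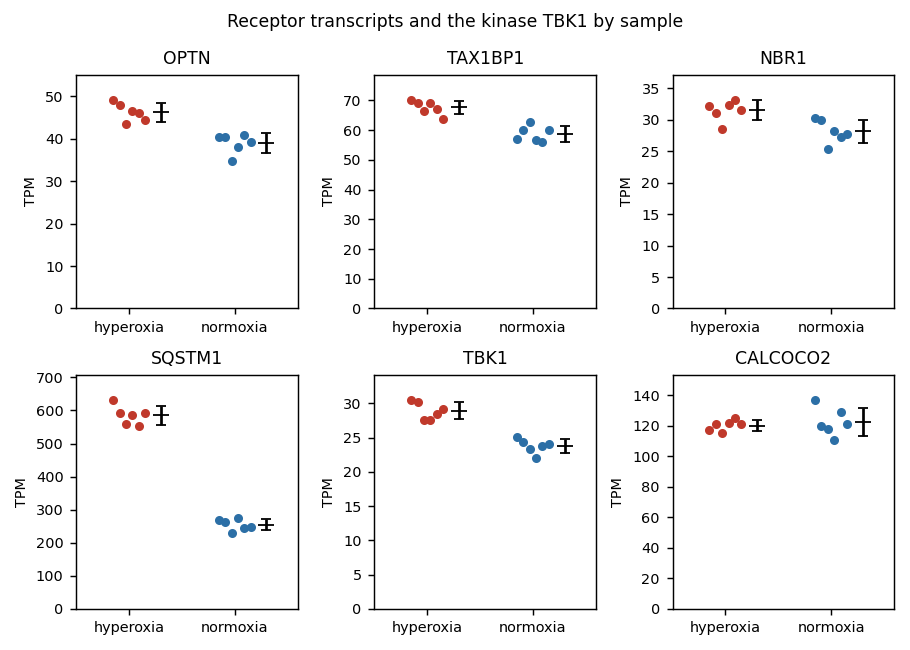
TPM of the receptors OPTN, TAX1BP1, NBR1, SQSTM1 and CALCOCO2 and of the kinase TBK1 in each of the 12 samples, hyperoxia at left and normoxia at right, with points for samples and bars for mean and SD. OPTN, TAX1BP1, SQSTM1 and TBK1 do not overlap between the groups, NBR1 overlaps in part, and the CALCOCO2 samples of hyperoxia lie inside the normoxia range.

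Among 22 regulators of autophagy by nutrients and transcription, 19 were tested and 6 rose (31.6%), against 11.7% of all tested genes. By limma 0 were lower, against 5.63% of all tested genes (1 lower at an unadjusted p below 0.05, 0 by the exact rank-sum test and 3 in the authors' deposited table). TFE3 (ENSG00000068323), a transcription factor of lysosomal and autophagy genes, measured 42.8, 46.1 and 49.5 TPM in hyperoxia and 30.8, 36 and 37.9 TPM in normoxia. The groups did not overlap and the difference was 0.37 (SE 0.05, limma, Benjamini-Hochberg adjusted p = 0.000594; 0.00596 without normoxia replicates 4 to 6). Its paralogue TFEB, named after its values were seen, was scarce at 1.29 to 2.59 TPM in hyperoxia and 0.93 to 2.07 TPM in normoxia and did not pass (0.24, SE 0.14, limma, Benjamini-Hochberg adjusted p = 0.258). FLCN, which promotes the retention of TFE3 in the cytoplasm, rose by 0.35, AKT1S1, an inhibitory subunit of mTORC1, by 0.19, and PRKAB1, a subunit of the energy sensor AMPK, by 0.23 (limma, Benjamini-Hochberg adjusted p = 0.00156, 0.00283 and 0.0278). The PRKAB1 call ended without hyperoxia replicate 2 (limma, adjusted p = 0.0568) and without normoxia replicate 1, 2 or 3 (0.0533 to 0.0635). The other 2 that rose were RRAGD and TSC1. Without normoxia replicate 1 neither of them passed (limma, adjusted p = 0.0535 and 0.0655), and the count of regulators that rose was 3. RRAGD also lost its call without any 1 of hyperoxia replicates 1, 2, 4 and 5 or normoxia replicates 2, 3, 4 and 6 (limma, adjusted p = 0.0501 to 0.0742). TSC1 lost it without any 1 of hyperoxia replicates 4 to 6 or normoxia replicates 4 and 5 (limma, adjusted p = 0.0589 to 0.0706). Leaving out normoxia replicates 4 to 6 together also ended the TSC1 call (limma, adjusted p = 0.168). So did quantile normalization (limma, 0.0573) and the replicate block (limma, 0.0511). Neither RRAGD nor TSC1 passed by the exact rank-sum test (adjusted p = 0.112 and 0.0559) or with no filter (limma, 0.0879 and 0.0609).

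In the third list, 17 genes of autophagosome biogenesis and fusion with the lysosome, 4 rose (23.5%), against 11.7% of all tested genes. By limma 0 were lower, against 5.63% of all tested genes (1 lower at an unadjusted p below 0.05, 0 by the exact rank-sum test and 1 in the authors' deposited table). VPS18, a subunit of the HOPS tethering complex, rose by 0.32 with no overlap between the groups (SE 0.05, limma, Benjamini-Hochberg adjusted p = 0.00171). EPG5, a tether between autophagosome and lysosome, rose by 0.23 (limma, Benjamini-Hochberg adjusted p = 0.00882; 0.0901 without normoxia replicates 4 to 6). VMP1, which acts in membrane growth, was called at 0.16 and PLEKHM1, a fusion adaptor, at 0.31 (limma, Benjamini-Hochberg adjusted p = 0.0458 and 0.0472), and 17 and 16 of the 22 alternative settings ended these calls. Leaving out any 1 sample other than hyperoxia replicate 1 and normoxia replicate 1 ended that of VMP1 (limma, adjusted p = 0.0601 to 0.0954), and any 1 other than normoxia replicate 5 that of PLEKHM1 (0.0564 to 0.104). The list's count was 2 with median-of-ratios scaling and 2 to 3 with any 1 sample left out.

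The authors' own test, made with edgeR on counts that were not analysed here, was set beside these calls. The authors' deposited table gave 12 of the 40 members as higher and 1 as lower at an adjusted p below 0.05, against 15.7% and 14.3% of all tested genes. Of these, 8 higher members and ATG5 were also called from the TPM by limma. ATG12, ATG13, ATG16L1 and ATG4D passed only in the authors' deposited table. BECN1 passed only by limma, and the authors' deposited table gave it a log2 fold change of 0.09 with an adjusted p of 0.175. For ATG7 the authors' deposited table gave -0.02, against 0.15 for the log2 ratio of the mean TPM. For ATG4B the authors' deposited table gave a log2 fold change of 0.94 and group means of TPM whose log2 ratio is 0.03. ATG4B is also 1 of 78 rows of the authors' deposited table in which the log2 fold change differs by more than 0.0001 from the log2 of the deposited fold change. ATG9B was the one member marked as significant in the authors' deposited table, at a log2 fold change of 1.54, an adjusted p of 1, a log2 ratio of mean TPM of 0.37 and a mean of 0.155 TPM in hyperoxia and 0.12 TPM in normoxia. Over the 39 tested members other than ATG4B, the log2 fold change in the authors' deposited table minus the log2 ratio of mean TPM had a median of -0.02 and ran from -0.18 to 0.17.

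**Figure D5:**
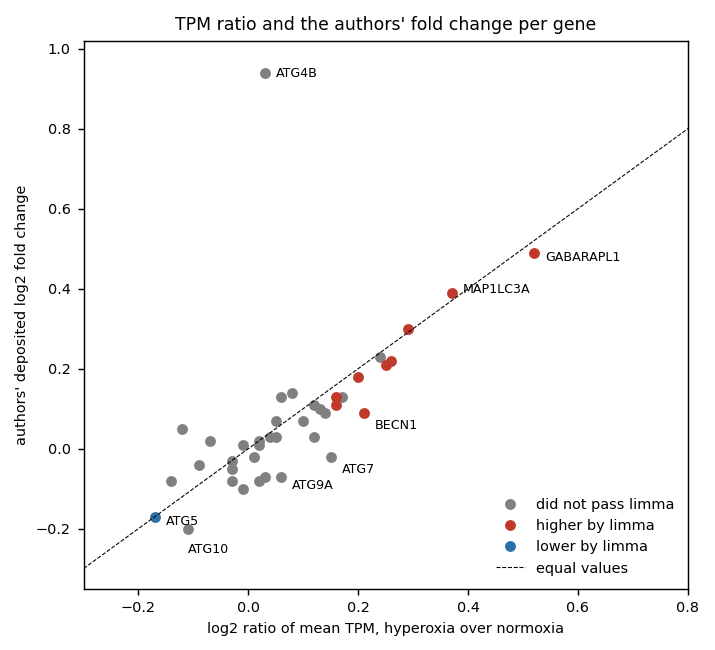
Log2 fold change of each of the 40 tested members in the authors' deposited table (vertical axis) against the log2 ratio of mean TPM, hyperoxia over normoxia (horizontal axis), with the line of equality. ATG4B lies farthest from the line, at 0.94 against 0.03, and ATG9B, which was not tested, is not drawn.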

How the data were processed

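RNA of 12 H1299 samples, 6 under hyperoxia and 6 under normoxia, was extracted with Trizol per the labels' protocols. The labels name an Illumina library kit in one place and ribosomal RNA depletion with a directional kit of another maker in another, so the kind of library, and with it strandedness, is unclear. HTSeq 0.9.1 (counting) and edgeR 3.16.5 (testing) were used, per the submitters' processing notes. These list the mouse build mm9, although every gene identifier is a human one. Not given in the sources used here are the aligner and the method behind the TPM.

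Values for each sample were deposited as TPM, as stated per the file headers. The authors' deposited fold change is a linear ratio of hyperoxia to normoxia, its log2 is deposited beside it, and the authors also deposited each gene's p-value, raw and adjusted. TPM holds no depth, so no counting intervals are given.

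Genes with a mean of at least 1 TPM were tested with limma 3.58.1 in R 4.3.3 (lmFit, eBayes with trend) on log2(TPM + 1). Tests were two-sided, and p-values of the 14520 genes were adjusted after Benjamini and Hochberg and called below 0.05. The step was tested on simulated data, drawn independently for each gene and sample. Such data lack the sample structure seen here and give no support to any single call. Shared 50-base words and exon overlaps came from GENCODE 29 and promoters from RefSeq (GRCh38.p14). The 22 alternatives were another pseudocount (0.1), no filter, a minimum of 5 TPM, median-of-ratios scaling, quantile normalization, no trend, a replicate block, an exact rank-sum test, leaving out each sample, leaving out normoxia replicates 4 to 6, and leaving out the 77 tested genes whose deposited log2 fold change does not follow from the deposited fold change. Members and lists were chosen with earlier results of these data known. Every called member is named with values, then the most abundant uncalled member of each of the 6 role groups, and up to 4 called genes with the smallest p of each other list. The other members are named to account for them. ATG4D, GABARAPL2, WIPI1, TFEB, RAB7A and VAMP8 are given in more detail than the rule asks, and were chosen for this after their values were seen.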

Additional observations from a re-analysis of the deposited data

Results flagged for a closer look

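Within the groups of 6, 5 of 104 group tests over 52 genes had a sample far from the others by Dixon's criterion (its gap to the nearest sample over the group's range, above the 95% critical value), where chance gives about 1 in 20. ATG101 was lowest in normoxia replicate 3, at 64.2 TPM, against 74.8 to 80.4 TPM in the other normoxia samples. ULK1 was highest in hyperoxia replicate 6, at 18.8 TPM, against 14.8 to 16 TPM in the other hyperoxia samples. WDFY3 was highest in the same hyperoxia sample, at 15.6 TPM, against 8.83 to 11.2 TPM. ATG5, the member called lower, was highest in hyperoxia replicate 5, at 28.1 TPM, against 26.1 to 26.6 TPM in the other hyperoxia samples. PRKAB1, a regulator called higher, was highest in hyperoxia replicate 2, at 28.4 TPM, against 23.2 to 24.6 TPM.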

How the results depend on the processing

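The 22 alternatives gave 1142 values for 52 named genes, of which 1028 kept their direction and side of the threshold, 70 no longer passed, 1 newly passed (ATG4D) and 43 changed sign, before rounding, in 14 genes that had not passed. GABARAPL1, MAP1LC3A, MAP1LC3B, BECN1, OPTN, TAX1BP1 and ATG5 kept their calls in all 22 alternatives. The call of NBR1 ended in 13 alternatives, that of WIPI2 in 12 and that of ATG14 in 6. Leaving out 1 sample at a time gave 7 to 8 higher members and 1 lower, 1330 to 1558 higher and 602 to 934 lower genes in all, 6 to 7 further receptors higher, 3 to 6 regulators higher and 0 to 1 lower, and 2 to 3 biogenesis and fusion genes higher and 0 to 1 lower.

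Over all genes, 515 were lower by the exact rank-sum test, 1235 with median-of-ratios scaling, and 375 without normoxia replicates 4 to 6, which left 1000 higher, 4 further receptors and 2 biogenesis and fusion genes. Biogenesis and fusion genes higher were also 2 with median-of-ratios scaling, no filter, no trend and quantile normalization. Regulators higher were 3 with no filter, and 1 regulator was lower with either scaling. Higher members were 6 with no filter, fewer than the 9 called. The cause was not tested.

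Signs changed with median-of-ratios scaling for AMBRA1 (-0.02), ATG101 (-0.01), ATG2B (-0.01) and WDR45B (-0.01), and with quantile normalization for AMBRA1 (-0.01), ATG101 (-0.02), ATG2B (0.00), ATG4B (-0.01) and WDR45B (-0.02). Without normoxia replicates 4 to 6 they changed for ATG10 (0.09), ATG12 (-0.01), WDR45 (0.00) and WDFY3 (0.01). Leaving out 1 sample at a time gave -0.10 to 0.07 for AMBRA1, -0.03 to 0.06 for ATG101, -0.03 to 0.09 for ATG16L2, 0.00 to 0.04 for ATG2B, -0.05 to 0.03 for ATG4A, -0.01 to 0.07 for ATG4B, -0.06 to 0.00 for CALCOCO2, -0.06 to 0.00 for PIK3R4, -0.16 to 0.05 for ULK2, -0.15 to 0.00 for WDFY3 and -0.06 to 0.04 for WDR45, and changed the sign of each in at least 1 case.

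With the replicate number as a block, 8 members were higher and 1 lower; ATG14 did not pass (adjusted p = 0.074 by limma). Same-numbered samples were correlated on their deviations from their own group's mean, not on their levels. These correlations ran from -0.117 to 0.0169. The same-numbered sample was the best match in a single direction for replicate 3, and in neither direction for the other numbers. With so few samples per group this check is weak, and whether the numbers mark pairs was not settled by it. The depth is unknown, and the number of samples limits what can be told apart.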

Other observations

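MAP1LC3B2, which was too low to be tested, ran from 0.7 to 1.26 TPM in hyperoxia. It had 0.1 and 0.21 TPM in normoxia replicates 1 and 6, and 1.03 to 1.29 TPM in the other normoxia samples. RAB7A, the small GTPase of late endosomes, was chosen after its values were seen. It measured 206 to 214 TPM in hyperoxia and 189 to 204 TPM in normoxia, without overlap, and did not pass the test (difference 0.08, SE 0.03, limma, Benjamini-Hochberg adjusted p = 0.0598). VAMP8, which acts in fusion with the lysosome and was also chosen after its values were seen, had the most negative difference of its list, -0.47 (SE 0.20, limma, Benjamini-Hochberg adjusted p = 0.124), at 0.58 to 2.43 TPM in hyperoxia and 1.48 to 3 TPM in normoxia.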
